A study of Mus musculus with 8 samples.

Results

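The stretch of mouse chromosome 11 between 40000000 and 55000000 (mm9, 15 Mb) surrounds the gene of the microRNA miR-146a, and 327 of the 41174 non-control probes of the array, under 205 gene names, were placed in it by their deposited coordinates. The probes of 1 gene name in this interval were set aside (2 probes), and the remaining members run from 40493216 to 54982054. The stretch was chosen by its position and selected on the measured difference between miR-146a knockout and BL6 wild-type cultures at several of its probes, so that difference is described here and not tested. Transcript levels were measured on 8 one-colour arrays, with 2 arrays described as biological duplicates in each of 4 groups. The groups were Bob1 wild-type (Bob1+/+), Bob1 knockout (Bob1-/-), BL6 wild-type (C57BL/6Ncrl) and miR-146a knockout (mir-146a-/-). All mice were 10 weeks old and of the strain C57BL/6 per the labels, replicate A female and replicate B male. Marrow from the femur was cultured with IL-7, the growth factor of B cell precursors, for 5 days (Iscove's medium, 10% FCS). How the knockout alleles were made, how many mice went into a culture, and whether the knockout mice were littermates of the wild-type mice are not given in the sources used here.

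MicroRNAs are short RNAs that guide silencing proteins to messenger RNAs through a short seed at their 5′ end, and miR-146a is known as a brake on NF-kB signalling that targets adaptors of Toll-like and interleukin receptors. Its gene does not code for protein, and the protein-coding genes around it have unrelated roles. They include mitotic genes (Hmmr, Pttg1), interferon-inducible GTPases (Ifi47, Irgm1), receptors of the TIM family (Havcr1, Havcr2, Timd2), the type 2 cytokine cluster (Il4, Il5, Il13) and assembly factors of the respiratory chain (Lyrm7). In the order of genes in the RefSeq table of GRCm38.p6, Gabra6, Gabrb2 and Atp10b precede the miR-146a gene and Pttg1, Slu7 and C1qtnf2 follow it.

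The mature miR-146a strands and the middle bases of the probes on which the description turns are given so that the transcripts measured can be recognised. The microRNA strands are from RefSeq (GRCm38.p6), with the seed (bases 2 to 8) in capitals. No probe for miR-146a itself is among the members, so the knockout labels were not checked by their target.
mmu-miR-146a-5p: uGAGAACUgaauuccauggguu
mmu-miR-146a-3p: cCUGUGAAauucaguucuucag
The strands have different seeds. The probes are 60 bases long, and bases 16 to 45 of each are printed as deposited, 5′ to 3′. Capitals mark the letters AATAAA, the common polyadenylation signal, which was searched on the probe strand only.
Hmmr, probe A_52_P36591, chr11:40514892-40514951, minus strand: aatgtgtgtgtaatataaAATAAAgtaata
Hmmr, probe A_52_P9656, chr11:40519497-40519556, minus strand: acaggcattgttgaatgaacatggtgcaac
Pttg1, probe A_51_P371190, chr11:43233801-43233860, minus strand: gatgcagatatttaaacttcttacttcttt
Ifi47, probe A_51_P129229, chr11:48910173-48910232, plus strand: atttcaaattgtgtgtccaaattggcaatg
Leap2, probe A_51_P117881, chr11:53235798-53235857, minus strand: gagatagataagtgaagtagtctttgtttt
Lyrm7, probe A_52_P387189, chr11:54652034-54652093, minus strand: tttcattccaataccttaaggcgacacctt
The letters AATAAA stand in 4.55% of all tested probes and in 4.0% of the tested probes of the stretch. The Hmmr probe that holds them also has a stop codon in each of its 3 reading frames on the probe strand, and the other Hmmr probe has 1 open frame. A stop in every frame was found in 20.3% of all tested probes and in 25.8% of those of the stretch. Exon, intron and UTR positions of the probes in mm9 were not analysed here.

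A level is the log2 processed signal of a probe minus the 75th percentile of its array, so a level of 0 is that percentile and levels of different probes are not set against each other. Tested probes are those flagged well above background on the 2 arrays of any group, and they number 225 of the 327 members, under 140 gene names. Of the 102 others, 80 were above background on no array and 22 on some. Of 12 early B cell markers, Vpreb1 and Rag1 among them, 12 were above background on all 8 arrays. So were 8 of 8 myeloid markers found on the array and 7 of 8 T and NK markers. Detection alone thus does not tell which cells the cultures held. The summed level of the early B cell markers, as linear signal relative to the 75th percentile, lay between 695 and 899. Their median log2 difference between miR-146a knockout and BL6 wild-type was 0.01. The sums for other cell types over the 8 arrays were 919 to 1400 for myeloid, 2.28 to 9.57 for T and NK, 1.37 to 2.99 for erythroid and 0.333 to 3.07 for stromal markers. In such whole cultures, fewer cells of a type and less RNA per cell cannot be told apart. The 2 arrays of a group correlated at 0.987 to 0.993 across probes, which are not independent replicates.

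Across the stretch, probes that were lower and probes that were higher in the miR-146a knockout lay between many that differed little. The difference was at least 1 log2 unit at 19 of 225 tested probes, 10 higher and 9 lower, against 1.41% of all 26528 tested probes (0.912% higher, 0.501% lower), shares that are given as background only because this contrast chose the stretch. The planned normexp background correction left 3 probes apart (1 higher, 2 lower), against 39 of all tested probes. Normexp after leaving out spots under their background, chosen after seeing the data, left 5 (1 higher, 4 lower), against 64. The authors' deposited table left 3 (1 higher, 2 lower), against 19. The median difference was -0.06, against -0.03 over all tested probes, and the median size was 0.207 against 0.108. A size under 0.5 was found at 181 probes (80.4%, against 94.5% of all tested probes). Of the 9 lower probes, 9 were above background on both BL6 wild-type arrays, while only 3 of the 10 higher probes were. A probe was tested if both arrays of any group passed the flag, so a higher probe could enter through the knockout alone. The filter thus helped to set this split, and nothing is read from it. The probes apart did not form a block. There were 2 each between 40 and 41 Mb, between 43 and 44 Mb and between 46 and 47 Mb. Between 48 and 49 Mb there were 4, and 1 each between 49 and 50 Mb and between 50 and 51 Mb. Another 4 lay between 53 and 54 Mb and 3 between 54 and 55 Mb, but 0 of 39 tested between 51 and 52 Mb. No members lie between 47 and 48 Mb, and none of the 9 between 41 and 42 Mb was tested.

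**Figure D1:**
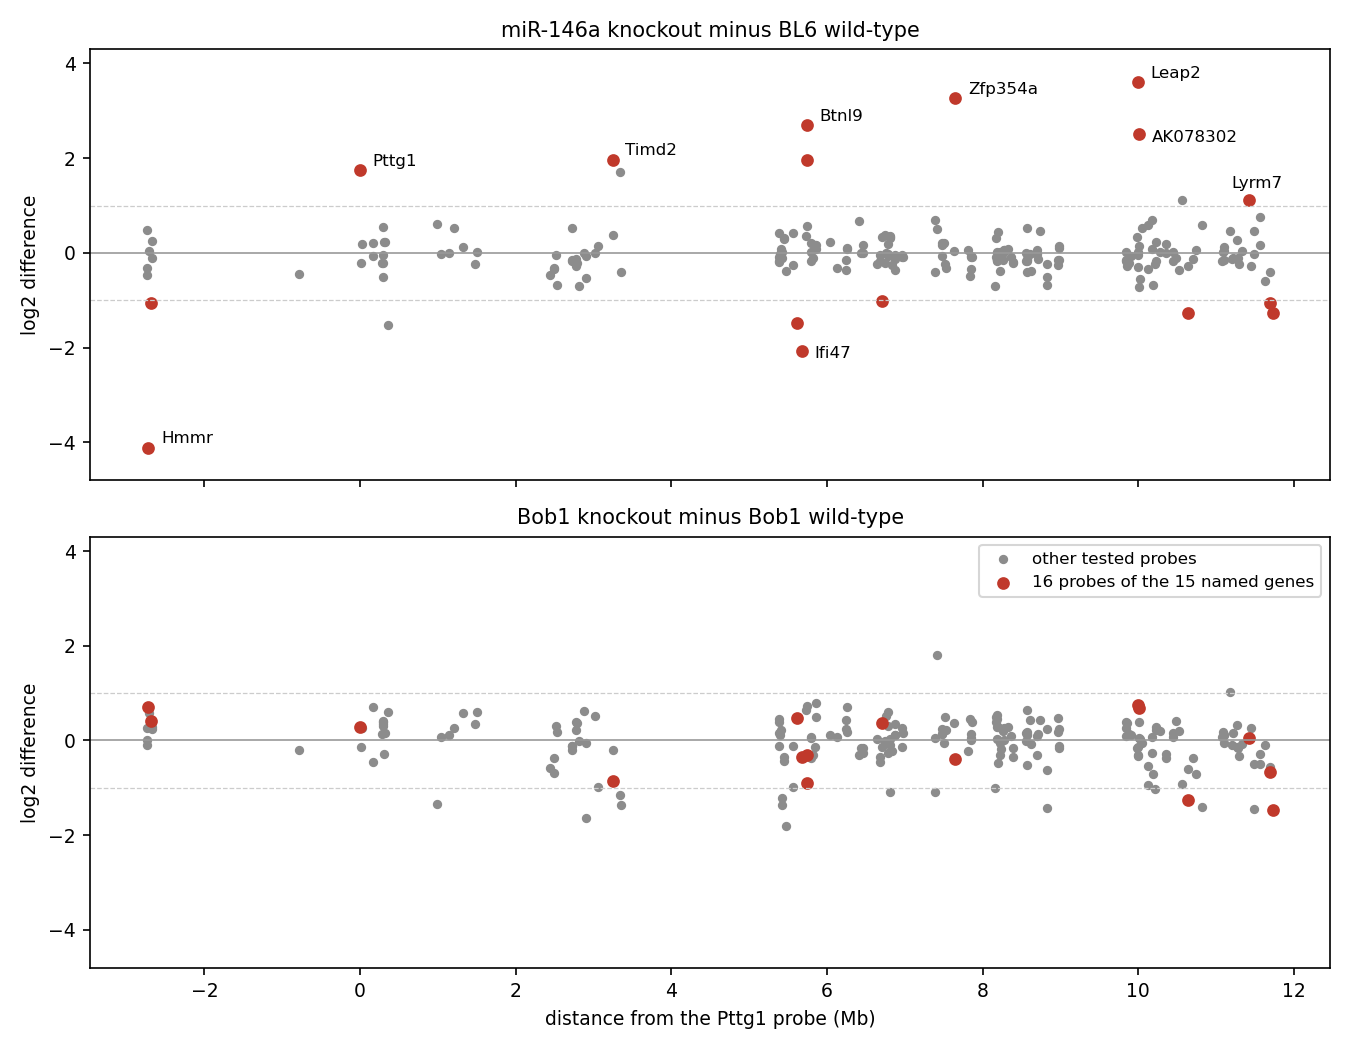
Log2 difference of each of the 225 tested probes (y axis) against its distance from the Pttg1 probe in Mb (x axis), with miR-146a knockout minus BL6 wild-type above and Bob1 knockout minus Bob1 wild-type below. Dashed lines mark a difference of 1, and red points are the 16 probes of 15 genes that differed by at least 1 with at least 0.5 in the same direction on both slides, from -4.11 at Hmmr to 3.60 at Leap2. The same red probes lie between -1.46 and 0.76 in the Bob1 panel.

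Both knockout arrays lay outside all 6 other arrays by at least 0.5 log2 units at 13 tested probes of the stretch, 9 above and 4 below, against 0.294% of all tested probes (0.234% above, 0.0603% below). This count shares the knockout arrays with the contrast behind the choice of the stretch, so nothing is read from these shares. In the neighbouring 15 Mb intervals, 0 of 94 tested probes below the stretch (25 to 40 Mb) and 0 of 286 above it (55 to 70 Mb) did so. At least 1 log2 unit lay between the groups at 4 and 0 probes of these intervals. At the lower edge, the outermost members are probes of Mat2b (-0.32 and 0.49), the first starting at 40493216. The nearest tested probes outside are those of Rars (-0.04, from 35633429) and Fbll1 (-0.16, from 35610904). No tested probe lies in between, so these values do not show where the differences end. At the upper edge, the Slc36a2 probe (-1.27) and a Gm2a probe (-0.40) lie inside, and Slc36a1 (0.39) and Sparc (0.76) outside.

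The cell division genes showed the lowest probe of the stretch, with another probe of the same gene near no difference. Hmmr encodes a hyaluronan-binding protein of the mitotic spindle. Its probe A_52_P36591 lay at 2.44 and 2.52 on the BL6 wild-type arrays A and B and at -1.81 and -1.46 on the miR-146a knockout arrays. On the Bob1 wild-type arrays it lay at 2.21 and 2.32, and on the Bob1 knockout arrays at 2.93 and 3.04. The miR-146a knockout arrays were thus the lowest by 3.67 log2 units, with no overlap with any other group. The difference of -4.11 is a 17.3-fold lower signal, with -3.90 on slide 1 and -4.33 on slide 2. It was -2.17 with the planned normexp correction and -2.06 in the authors' deposited table. Between females it was -4.25 and between males -3.97. The other Hmmr probe, 4605 bases away and in the same transcript model, lay at 0.65 and 0.95 in BL6 wild-type and at 0.79 and 0.90 in the knockout, a difference of 0.05. Its groups overlapped, so the low signal was a property of 1 of the 2 Hmmr probes.

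Pttg1 encodes securin, the inhibitor of the protease that separates sister chromatids, and its probe is the first after the miR-146a gene. It lay at 2.98 and 2.94 in BL6 wild-type, at 4.65 and 4.77 in the miR-146a knockout, at 2.76 and 2.95 in Bob1 wild-type and at 3.06 and 3.23 in the Bob1 knockout. The knockout arrays were the highest by 1.42, with all other arrays within 0.5 of each other. The difference of 1.75 is a 3.36-fold higher signal, with 1.79 and 1.71 within the slides. Nudcd2, a NudC domain gene 37.9 kb from Hmmr, lay at 0.63 and 0.88 in BL6 wild-type and at -0.41 and -0.17 in the knockout (-1.05), below the 6 other arrays by 0.75. Over the cell division list, 26 probes of 13 genes were tested, with 1 higher and 2 lower by at least 1 and a median of -0.03. Slu7, a splicing factor gene that follows Pttg1, differed by -0.21 and 0.19 at its 2 probes. Gabrb2, a GABA receptor subunit and the only gene of the 3 before miR-146a with a tested probe, differed by -0.45.

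The interferon-inducible GTPases, which act against intracellular pathogens, did not move together. Ifi47 lay at 3.58 and 3.32 in BL6 wild-type and at 1.55 and 1.18 in the miR-146a knockout. It lay between 2.88 and 3.56 on the 4 Bob1 arrays. The knockout arrays were the lowest by 1.33, and the difference of -2.08 is a 4.22-fold lower signal (-2.39 on slide 1, -1.77 on slide 2). Irgm1, a GTPase of the same family, differed by 0.32 and 0.29 at its 2 tested probes, and Tgtp1, a related T cell GTPase gene, by 0.43 and -0.25. Irf1, a transcription factor of the interferon response, differed by 0.19 and 0.00. The probe of 9930111J21Rik2 lay at -3.79 and -2.01 in BL6 wild-type and at -4.32 and -4.44 in the knockout (-1.48), while 1 Bob1 knockout array lay at -4.55 and the other at -2.19, so its groups overlapped the knockout. This gene has a close copy beside it, and the array cannot assign its signal with certainty. Of the 9 tested probes of the list, 0 were higher and 2 lower by at least 1.

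**Figure D2:**
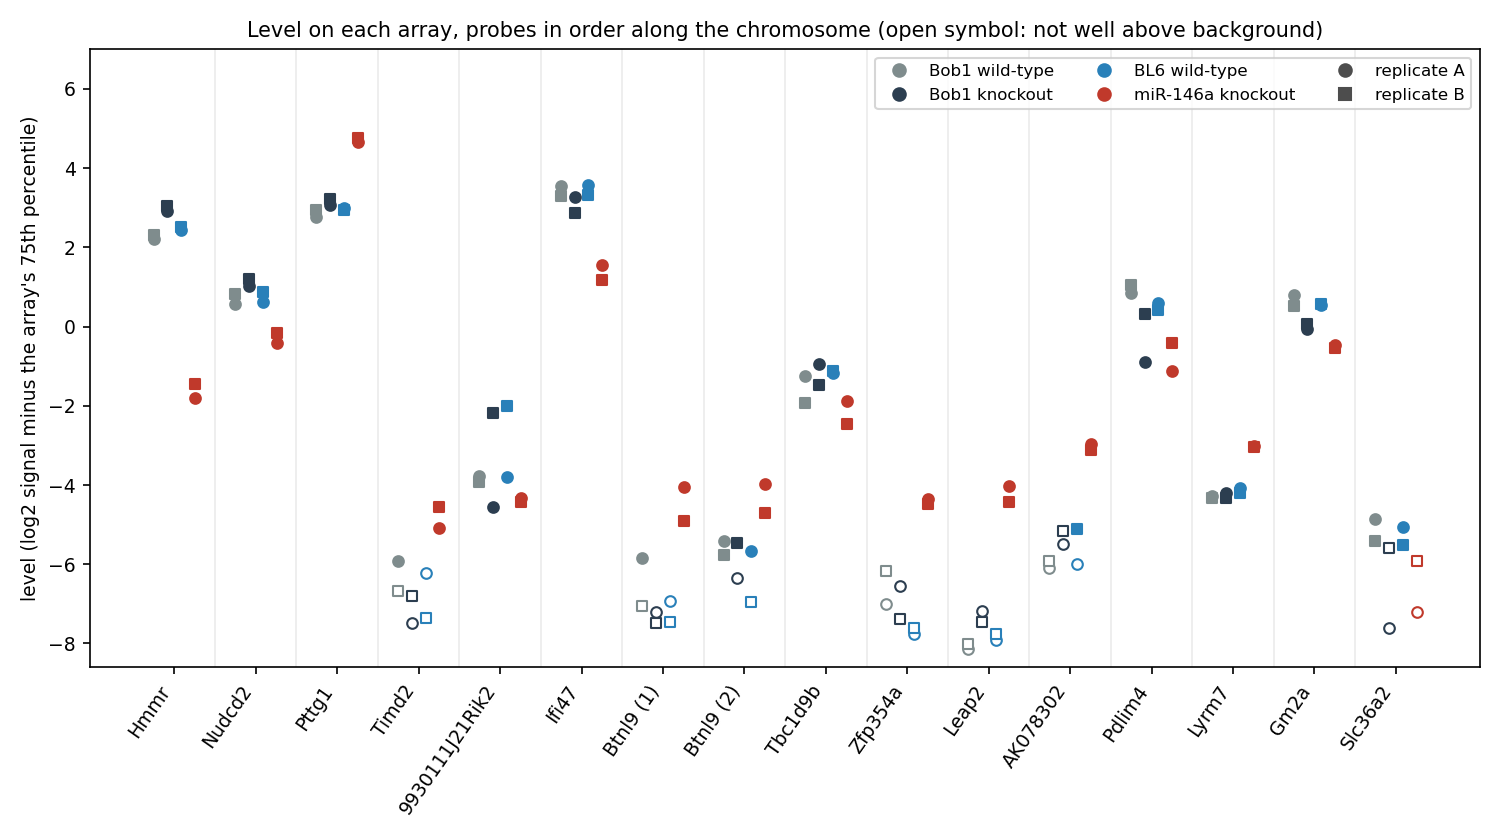
Level (y axis, log2 signal minus the 75th percentile of the array) of the 16 named probes on each of the 8 arrays, in order along the chromosome, with colours for the 4 groups, circles for replicate A and squares for replicate B. Open symbols are arrays on which the probe was not well above background, as for Leap2 on 6 of 8 arrays, and the red knockout symbols of Hmmr, Nudcd2, Pttg1 and Ifi47 stand apart from the other 6 filled symbols.

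Several of the higher probes were above background only, or almost only, in the knockout. Leap2 encodes a peptide of the liver and gut that blocks the ghrelin receptor and was found as an antimicrobial peptide. Its probe lay at -7.90 and -7.76 in BL6 wild-type and at -4.03 and -4.43 in the miR-146a knockout. The 4 Bob1 arrays lay between -8.14 and -7.19. It was well above background on the 2 knockout arrays and on no other, so the measured difference of 3.60 gives only a bound, a signal at least 3.27-fold higher. For such a bound, each array of the lower group is given the dimmest signal that still passed its background flag. The probe's own signal is used where that is higher. Such bounds hold for group means in the processing used here. Normexp and the authors' deposited table gave smaller folds. AK078302, a transcript on the opposite strand 8.55 kb away, lay at -6.00 and -5.11 in BL6 wild-type and at -2.96 and -3.12 in the knockout (2.51), with 1 of the 2 BL6 arrays above background. Between them lies Uqcrq, a subunit of respiratory complex III, whose probes differed by 0.14 and -0.73.

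Zfp354a, a zinc finger gene, lay at -7.76 and -7.62 in BL6 wild-type and at -4.36 and -4.48 in the knockout (3.27, at least 2.87-fold). It too was above background on the knockout arrays alone, and a probe of the same gene 860 bases away was above background on no array. Btnl9, a butyrophilin-like membrane gene of the immunoglobulin family, was higher at both its probes. A_51_P237585 differed by 2.71 (at least 2.76-fold) and A_52_P277604, 604 bases away, by 1.97. On the latter, BL6 wild-type lay at -5.67 and -6.95 and the knockout at -3.98 and -4.71. Timd2, a TIM receptor, lay at -6.22 and -7.36 in BL6 wild-type and at -5.08 and -4.56 in the knockout at 1 probe (1.97, at least 2.18-fold), while its other tested probe differed by 0.37 with -0.58 and 1.33 within the slides. These folds depend on how low signals are treated. With normexp background correction and an offset of 50, after leaving out spots under their background, Leap2 differed by 0.48, Zfp354a by 0.43 and AK078302 by 0.65. In the authors' deposited table they differed by 0.04, 0.04 and 0.07. In the same settings, in that order, the Btnl9 probe A_51_P237585 differed by 0.27 and 0.03. Its probe A_52_P277604 differed by 0.36 and 0.04, and the Timd2 probe by 0.22 and 0.03. With the planned normexp correction, Leap2 differed by 0.21, Zfp354a by 0.23 and AK078302 by 0.33. The Btnl9 probes then differed by 0.03 and 0.04 and the Timd2 probe by 0.11.

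Lyrm7 encodes an assembly factor of respiratory complex III. Its probe A_52_P387189 matches AK079070 and not the RefSeq transcript. It lay at -4.08 and -4.21 in BL6 wild-type, at -3.02 and -3.05 in the knockout, and between -4.34 and -4.21 on the Bob1 arrays. The difference was 1.11 (1.03 and 1.19 within the slides), with the knockout arrays the highest by 1.03. The other 2 Lyrm7 probes, RefSeq's among them, were above background on no array. The value of A_52_P387189 became 0.44 with normexp after leaving out spots under their background. It was 0.15 with the planned normexp correction and 0.06 in the authors' deposited table. Lyrm7 lies 11.4 Mb from Pttg1.

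The remaining named genes were lower by smaller amounts. Pdlim4, an actin-associated LIM gene, lay at 0.59 and 0.42 in BL6 wild-type and at -1.11 and -0.41 in the knockout (-1.26), but 1 Bob1 knockout array lay at -0.91, so the groups overlapped. Gm2a, the cofactor for ganglioside breakdown, lay at 0.53 and 0.57 against -0.46 and -0.54 at 1 probe (-1.05), and its other probe, 410 bases away, differed by -0.40. Slc36a2, an amino acid transporter, was not well above background in the knockout (-1.27, at least 1.59-fold lower as a group mean in this processing). The Slc36a2 difference was -0.14 with the planned normexp correction and -0.01 in the authors' deposited table. Its value was -2.14 between females and -0.41 between males, and -0.63 without knockout array A or -1.92 without knockout array B. Bob1 knockout array A lay at -7.60, so the groups overlapped. A Tbc1d9b probe matching AK077970 differed by -1.02, while the RefSeq probes of this Rab regulator differed by -0.22 and 0.37.

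**Figure D3:**
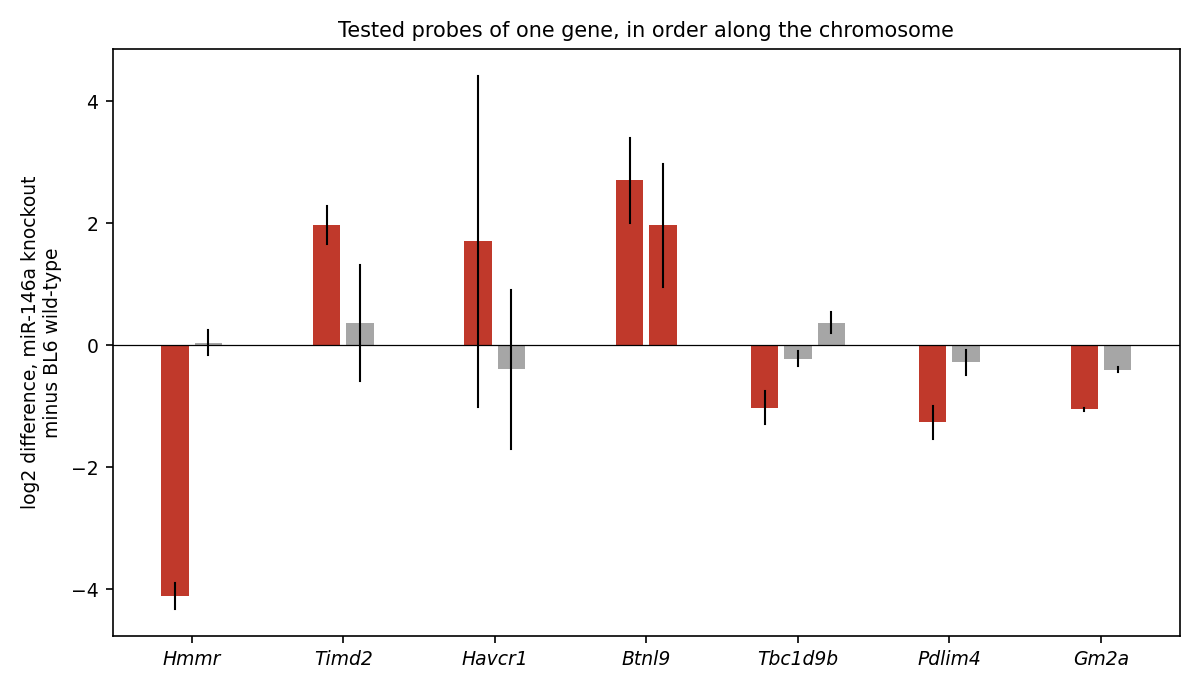
Log2 difference, miR-146a knockout minus BL6 wild-type (y axis), for each tested probe of the 7 genes that have several tested probes and at least 1 that differed by 1 or more. Bars start at 0 and are red where the size is at least 1, and each black line joins the differences of the 2 slides. Btnl9 alone has all its bars red, and at Hmmr a bar at -4.11 stands beside one at 0.05.

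Where a probe of a gene stood apart, another probe of that gene often did not. Of 56 genes with several tested probes, 7 had a probe that differed by at least 1, and at 6 of these another probe did not. The same count was not made over all genes of the array, so it is not read as a trait of the stretch. The 19 probes apart comprised 16 that went the same way by at least 0.5 on both slides, against 0.848% of all tested probes. The other 3 were Adra1b (-3.61 and 0.57 on the slides), Havcr1 (-1.01 and 4.42) and Slc22a4 (0.47 and 1.77). Adra1b, an adrenergic receptor gene, was high on BL6 wild-type array A alone (-2.46, against -6.07 to -4.81 elsewhere). Havcr1, a TIM receptor gene, was high on knockout array A alone (-2.90, against -7.32 to -5.15). Their mean differences of -1.52 and 1.71 each rest on 1 array. Thg1l, a tRNA-modifying enzyme gene, and Anxa6, an annexin gene, were chosen after their values were seen. They differed by less than 1 (-0.67 and 0.76 at 1 Anxa6 probe), with both knockout arrays outside the other 6 by 0.57 and 0.59. Each slide held knockout of one sex and wild-type of the other. The same direction within both slides was a condition for the 16 named probes and is no support for them.

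**Figure D4:**
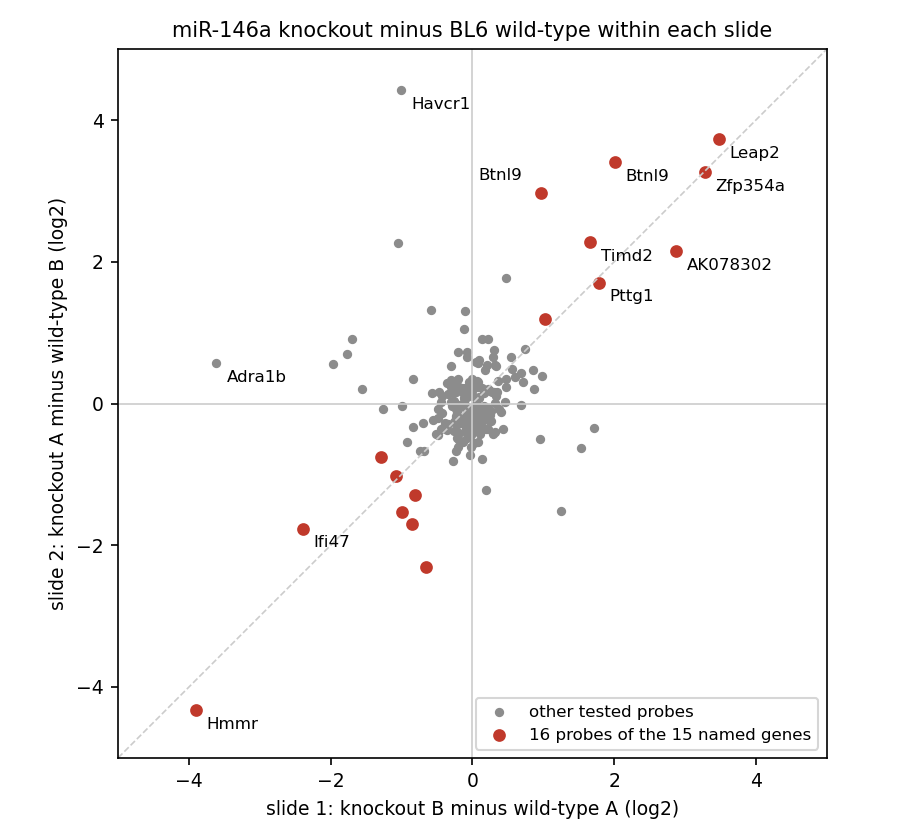
Log2 difference, miR-146a knockout minus BL6 wild-type, of the 225 tested probes on slide 2 (y axis, knockout A minus wild-type B) against slide 1 (x axis, knockout B minus wild-type A), with a dashed line of equal values. The 16 named probes (red) lie at lower left and upper right, Hmmr at -3.90 and -4.33, while Havcr1 and Adra1b lie off the line.

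Counts of probes apart are given for the other gene groups, and no difference between groups was tested. Over all tested probes 1.41% differed by at least 1. The lists, here and above, are too small for their counts to be set against that share. Of 51 tested probes of protein folding, turnover and trafficking genes and 11 of RNA binding genes, 0 differed by at least 1. Hnrnpab, an RNA-binding protein gene, differed by -0.18 to 0.01 over 4 probes, and Canx, an endoplasmic reticulum chaperone gene, by -0.35 to -0.04 over 3. Among 12 tested probes of T cell and immune receptor genes, 2 were higher and 0 lower, with a median of -0.10. Tcf7, a T cell transcription factor gene, differed by -0.67 and -0.51 at its 2 probes. The T and NK markers had a median difference of -0.35 in the same comparison, and their part in these values was not tested. Of 5 tested probes in the cytokine list, Leap2 alone was apart. Il4 differed by -0.67 and Il13 by -0.24, with groups that overlapped. Of the 13 mitochondrial probes 1 was higher (Lyrm7), of the 10 zinc finger probes 1 (Zfp354a), and of the 11 solute carrier and lipid probes 1 was higher and 1 lower (Slc22a4, Slc36a2). Of 22 olfactory receptor probes 15 were above background on no array. Of 11 GABA receptor probes 1 was tested. In all, 77 tested members belong to none of the 10 lists.

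The Bob1 arrays were not used to choose the stretch, and its share of called probes was below that of the whole array in the fit used here and above it in the authors' deposited table. Bob1, a coactivator of octamer-binding transcription factors in B cells, is encoded on another chromosome. In the Bob1 knockout, 8 of 225 tested probes passed limma's test at an adjusted p of 0.05 (3 rose, 5 fell, with Gm5431 the largest change), a share of 3.56% against 5.55% of all tested probes (2.82% rose, 2.73% fell). At an unadjusted p under 0.05 there were 46, against 27.4% of all tested probes. A difference of at least 1 in either direction was found at 18 probes (8.0%, against 7.76% of all). The spread behind these p-values is that between the 2 cultures of a group, pooled over all 4 groups. The cultures of a group also differ in sex, and those of the BL6 and miR-146a groups in slide. The planned normexp correction gave 0 limma calls in the stretch and over all probes, with 0 and 146 at an unadjusted p under 0.05. The authors' deposited table gave 16 (11 rose), 7.11% against 5.21% of all tested probes. Normexp without the spots under their background, chosen after seeing the data, gave 29 (19 rose), 12.9% against 17.6%. With the replicate letter, which is the sex of the mice, as a block there were 15, 6.67% against 8.58%. Slide 1 held the Bob1 wild-type pair and slide 2 the Bob1 knockout pair, so slide and genotype cannot be told apart between them. With the slide as a block over all 8 arrays, 0 of the 225 were called, with 15 at an unadjusted p under 0.05, and 124 of all 26528 were called. Leaving out 1 array left 2 calls without Bob1 wild-type A or B, 3 and 6 without Bob1 knockout A or B, 2 without BL6 wild-type A or B, and 1 without miR-146a knockout A or B.

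Gm5431, listed here with the interferon-inducible GTPases, fell. It lay at -3.91 and -4.19 in Bob1 wild-type and at -5.95 and -5.75 in the Bob1 knockout, where it was not above background. The other 4 arrays lay between -4.64 and -4.23, so the Bob1 knockout arrays were the lowest of the 8. The log2 fold change was -1.80 (SE 0.14, limma adjusted p = 0.00208), a fall of at least 2.73-fold, and the adjusted p was 0.0531 under the slide block. Of the 8 calls, Gm5431 alone held without each array in turn (0.0082 to 0.014). It was lost with the planned normexp correction (-0.44, adjusted p = 1), with normexp after leaving out spots under their background (-0.09, 0.643) and in the authors' deposited table (-0.04, 0.137). In the miR-146a knockout it differed by -0.37.

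The Hmmr probe A_52_P36591 rose by 0.72 in the Bob1 knockout (SE 0.15, limma adjusted p = 0.0474, 0.283 with the slide block), the opposite direction to its value in the miR-146a knockout. Its other probe gave 0.57 (adjusted p = 0.201). Ccnjl, a cyclin J-like gene, rose by 0.71 (adjusted p = 0.0316) and Cnot6, a deadenylase of the CCR4-NOT complex, by 0.70 at 1 of 3 probes (0.0248). Gm2a fell by 0.67 and by 0.57 at its 2 probes (adjusted p = 0.0441 and 0.0451), and these were also the probes at -1.05 and -0.40 in the miR-146a knockout. Clint1, a clathrin adaptor gene, fell by 0.70 (0.0419). Trim7, a ubiquitin ligase gene, fell by 1.22 (0.0474) at a probe that was above background on the Bob1 wild-type arrays alone. The probe was tested only through those arrays, where it is higher, so the filter favoured a fall and no support is drawn from it. Without the filter on dim probes its limma adjusted p was 0.062. It has no bound for its fold, and its sign turned (0.30) with normexp after leaving out spots under their background. Each of these 7 calls was lost without at least 6 of the 8 arrays in turn, with adjusted p up to 0.192. The myeloid markers had a median of -0.88 and the T and NK markers of -1.02 in the Bob1 knockout, and their part in these changes was not tested. The 80 members that were above background nowhere had a median of 0.62 in this comparison and of -0.10 in the miR-146a comparison, so levels near background lay higher on the Bob1 knockout arrays.

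The 2 wild-type groups were also set beside each other. Bob1 wild-type minus BL6 wild-type lay within 0.5 at 12 of the 16 named probes and reached 1.11 at Zfp354a, which was not above background in either group. The median size of this difference over the tested members of the stretch was 0.11. The share within 0.5 was not computed over all tested probes, so the 12 are not read as a trait of the named probes. Against Bob1 wild-type, the miR-146a knockout differed by -3.90 at Hmmr, 1.86 at Pttg1, -2.06 at Ifi47, 3.85 at Leap2 and 1.27 at Lyrm7. The size of this difference was under 1 at 9930111J21Rik2 (-0.54), Tbc1d9b (-0.59) and Nudcd2 (-0.996), and at least 1 at the other named probes. At Zfp354a it was 2.16, against 3.27 relative to BL6 wild-type. These values share the knockout arrays with those against BL6 wild-type. Over all tested members, the 2 wild-type groups differed by at least 1 at 3 probes (1.33%, against 1.48% of all tested probes).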

How the data were processed

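Feature Extraction 10.5.1.1 read the spots of an mm9 design, per the file headers. The deposited intensity used here is its processed signal, background-subtracted and detrended within the array, with no normalization between arrays, beside deposited flags (1 or 0, with other per-spot values) for outliers and for signal well above background. The authors' deposited table of log2 values (medians 9.587 to 9.589) served as an alternative. Its scale and centring are not given in the sources used here beyond the name of limma in the submitters' processing notes.

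Control spots and flagged outliers (71 to 156 per array) were left out, 0 spots were saturated, and spots of a probe were averaged. The log2 signal was taken relative to the 75th percentile of its array (494 to 782 units), with 60.5% to 66.1% of probes above background. A limma fit (version 3.58.1, R 4.3.3) of 4 group means on 26528 probes left 4 residual degrees of freedom and was checked on simulated data. P-values were adjusted over all tested probes (Benjamini-Hochberg). The 2 arrays per group limit the precision. Slides are those of the array barcodes.

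The members and the 10 gene lists were chosen with earlier results of these data known. Named were the marker genes Hmmr, Pttg1, Ifi47, Leap2 and Lyrm7, genes that differed by at least 1 with at least 0.5 the same way on both slides, Bob1 calls, the probes at the edges, examples from the lists, and the 3 genes on each side of the miR-146a gene. Of 327 probes, 275 matched the RefSeq table (GRCm38.p6) by accession or symbol, and the array's names were kept. Alternatives covered background correction, normalization, the deposited table, the filter on dim probes, 1 probe per gene, slide, replicate letter and each array.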

Additional observations from a re-analysis of the deposited data

How the results depend on the processing

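The 3 counts over the stretch in the report are 19 probes apart by at least 1 between miR-146a knockout and BL6 wild-type, 13 with both knockout arrays outside the other 6, and 8 Bob1 calls. They became 3, 1 and 0 with normexp background correction. In that setting 15 spots under their background, on 4 arrays, entered the correction. Without those spots, an alternative added after seeing the data, they became 5, 5 and 29, 19 of the 29 higher. The authors' deposited table gave 3, 3 and 16 (11 higher). Only probes above background on all 8 arrays gave 10, 7 and 7, with 189 members tested. Without a filter the Bob1 count was 3 of 327, and with 1 probe per gene 4 of 140. With the slide block it was 0. With the replicate block it was 15, and the other counts were 19 and 15. The letter is the sex of the mice, and the differences between A and B correlated at 0.07 to 0.36 over the 6 pairs of groups, 0.12 between the Bob1 groups. Leaving out each array in turn gave 18 to 21, 13 to 18 and 1 to 6. The values of the 16 named probes, miR-146a knockout minus BL6 wild-type, kept their direction in all settings. The 16 were chosen by direction and size in this contrast. That choice favours the same direction without a BL6 or miR-146a knockout array, so it is no support for them. In the authors' deposited table some lay close to no difference (Slc36a2 -0.01, Timd2 0.03). Several settings could not change the miR-146a difference at a probe and say nothing about it. They were the filters, 1 probe per gene, both blocks and leaving out a Bob1 array. Of 277 values, these settings included, 41 moved by more than the spread between replicates. All 41 came with normexp or the deposited table, dim and bright probes alike (Pttg1 from 1.75 to 2.10 with the planned normexp). The planned normexp moved 16 of 16, normexp without those spots 10 of 16, and the authors' deposited values 15 of 16. Of 138 values of the Bob1 calls, 79 missed the threshold, and 1, Trim7 at 0.30 with normexp without those spots, reversed. The cause was not tested. A fold has a bound only where the probe was above background on no array of its lower group. AK078302, the Btnl9 probe A_52_P277604 and Trim7, also dim, have no bound.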
